A study of Equus caballus with 4 samples.

Results

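The interferon-induced antiviral effector genes are a set of 40 named genes whose products act against viruses or regulate that response, and here their mRNA was measured in equine satellite cells with and without the leucine metabolite β-hydroxy-β-methylbutyrate (HMB). The 40 genes were put together with the measured ratios of this same comparison in view, so their values are a description, and no test of the set is given. Of the 40, the gene name column of the array holds 30, among 24998 gene names in all. A member was kept when 1 of its channels, the same on each of the 4 arrays, stood well above background, as was so for 24 of the 30, while 15614 gene names on the array had such a probe. Of the 10 members the column does not name, 8 were named through their accession or description, and 2, *IFIT2* and *SP110*, had no probe.

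Type I interferons bind a receptor on the cell surface, its JAK kinases phosphorylate STAT proteins, and these enter the nucleus with an interferon regulatory factor and switch on the genes of the set. Some products block the entry of a virus, the translation of its RNA or the release of its particles, whereas others attach the ubiquitin-like protein ISG15 to other proteins or remove it. Cells that carry no virus, muscle cells in culture among them, can hold part of the set at a low level of expression.

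The cells came from the semitendinosus muscle of colts, were grown in culture and were in a differentiation medium with horse serum until the 3rd day, and the treated cells had HMB for the last 24 h. The methods give the concentration as 50 µM, whereas the labels give the dose as 50 µg without a volume, so the units differ and the concentration is not certain. On each of the 4 two-colour arrays of 60-base horse probes, all on 1 slide, RNA of HMB-treated cells carried Cy5 and that of control cells Cy3, so the dye and the treatment cannot be told apart. Which colt went on which array is not stated, and the arrays are called by their replicate numbers, 1 to 4.

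Values are log2 ratios of HMB-treated over control cells, so a ratio of −1 is a treated signal 2 times below the control signal. Of the 24 genes, 23 had a mean log2 ratio below 0, as had 46.6% of all tested genes, and 20 were lower with HMB on all 4 arrays, as were 21.4%. Their means ran from −2.78 for *IFI44* to 0.11 for *PLSCR1*, with a median of −1.40, and the median over all 15614 tested genes was 0.02. The direction of *PLSCR1* turned under another normalisation, to −0.04 after normexp background correction with loess and −0.12 after normexp with median centring. A mean below −1 was found for 17 of the 24, and for 185 (1.18%) of the tested genes. In bulk RNA such as this, fewer cells that express a gene and less of its RNA per cell cannot be told apart.

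The threshold was a Benjamini and Hochberg adjusted P of at most 0.05 in limma over all 27384 tested probes. It was passed by 19 of the 24 genes, all 19 lower with HMB, beside 22.4% of all tested genes in either direction and 11.6% lower. Since the members were chosen on this contrast, nothing is read from that difference. The 5 genes short of the threshold were *ISG20*, *PLSCR1*, *NMI*, *SAMD9* and *SAMD9L*. The count was 12 without replicate 1, which ended the calls of *MX2*, *HERC5*, *HERC6*, *IFI6*, *EPSTI1*, *TRIM21* and *DTX3L*. With both channels required above background it was 15 of 20, since *MX2*, *IFIT3*, *XAF1* and *DTX3L* were kept through control signal alone. It was 5 of 30 without the background filter (*MX1*, *IFIT3*, *ISG15*, *LGALS3BP* and *XAF1*) and 8 with the channels as unpaired samples. It was 0 with a test of each probe on its own variance, which the study's supplementary workbook names and which was run on the same tested probes. At an unadjusted P of 0.05, 16 of the 24 passed that test. Here and below, the share of all tested probes at that unadjusted P is not given, so nothing is read from such counts.

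**Figure D1:**
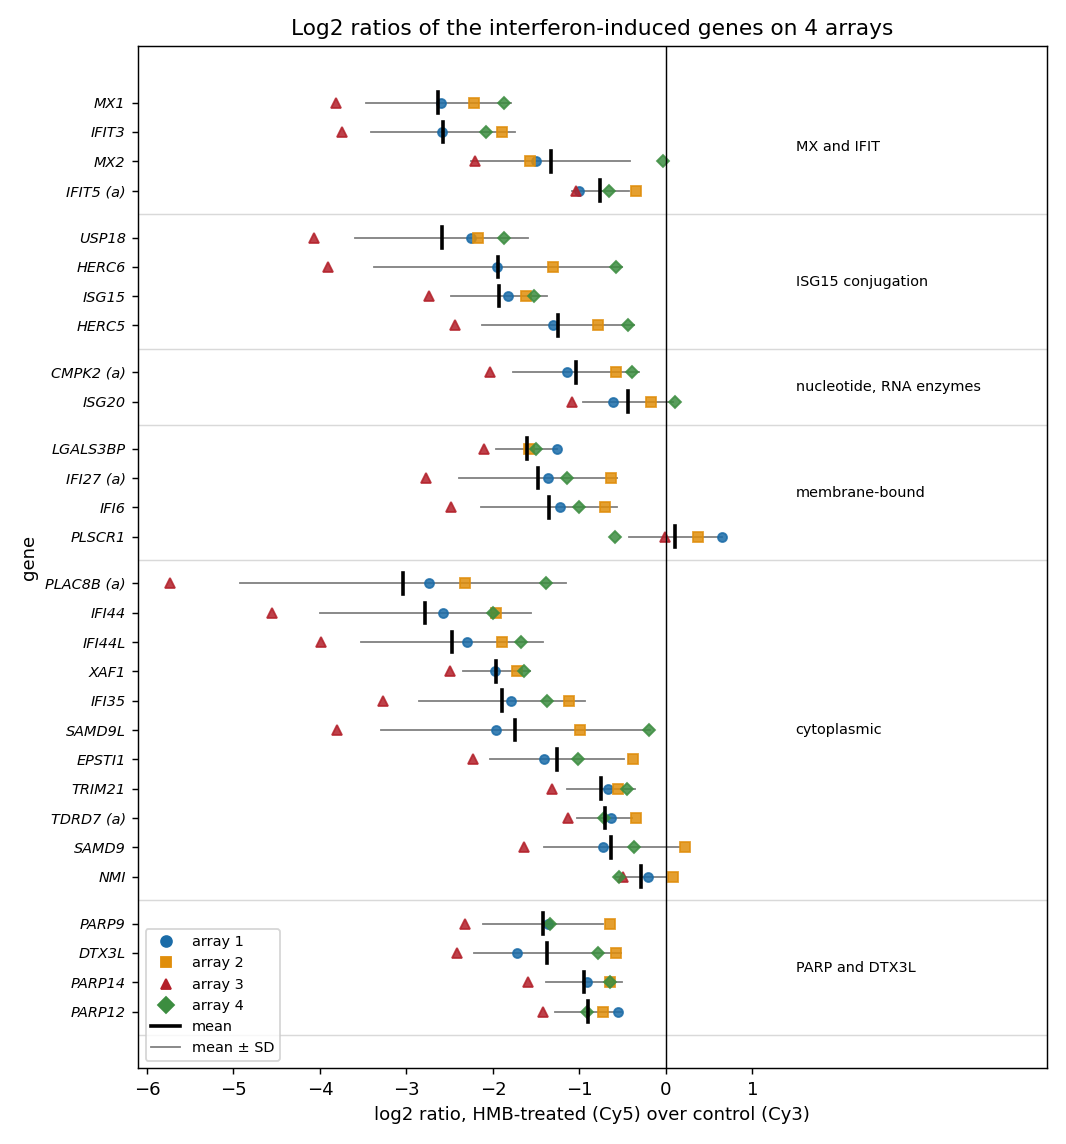
Log2 ratio of HMB-treated over control cells for each gene with a tested probe, by role, with 1 symbol per array, the mean as a black bar and the SD as a grey line; (a) marks the 5 genes named by accession or description. Array 3, the red triangles, had the lowest ratio for most genes, and *PLSCR1* had arrays on both sides of 0.

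The plot of ratios by gene shows array 3 lowest for most genes, while the array with the highest ratio differed from gene to gene. Array 3 gave the lowest ratio for 22 of the 24 genes and array 4 for the other 2, *PLSCR1* and *NMI*, whereas over all tested probes array 3 was lowest for 17.7%. The highest ratio was on array 4 for 11 genes, on array 2 for 10 and on array 1 for 3. The median over the 24 genes was −1.45 on array 1, −0.89 on array 2, −2.42 on array 3 and −0.95 on array 4, which is a mean of −1.43 ± 0.71 (SD, n = 4). All 4 array medians of the set were below 0, and those over all tested genes were between 0.01 and 0.03.

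MX and IFIT proteins act on viral nucleocapsids and viral RNA. *MX1* codes for a dynamin-like GTPase that binds incoming nucleocapsids, and its log2 ratios on arrays 1 to 4 were −2.60, −2.22, −3.81 and −1.87, a mean of −2.63 ± 0.84 (SD, n = 4), or 6.18-fold lower with HMB. The ratio was lowest on array 3 and nearest to 0 on array 4. In control cells its processed signal was 16589, 4040, 31066 and 2554 on arrays 1 to 4, and in HMB-treated cells it was 2736, 866, 2210 and 697. Control signal was high on arrays 1 and 3 and low on arrays 2 and 4, and on each array the treated signal was below the control signal of that array. The second *MX1* probe, which shares 20 bases with the first, had a mean of −2.70.

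Its relative *MX2*, known in people for a block to retroviruses, was measured at low signal. Its ratios were −1.50, −1.57, −2.21 and −0.03 on arrays 1 to 4, a mean of −1.33 ± 0.92 (SD, n = 4). Array 4 stood near 0, with a signal of 100 in control and 98 in treated cells, while the other arrays were well below it. A second *MX2* probe, without shared bases, had a mean of −1.73, with treated signal above background on 2 of 4 arrays. Treated signal of the first probe was above background on 3 of 4 arrays, and its call was lost without any 1 of replicates 1, 2 and 3. After normexp correction its mean was −0.64 with loess and −0.62 with median centring, and neither was past the threshold.

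*IFIT3* codes for a tetratricopeptide protein that steadies IFIT1 on viral RNA. Its ratios were −2.59, −1.90, −3.74 and −2.08, a mean of −2.58 ± 0.83 (SD, n = 4), or 5.96-fold lower. Array 3 was lowest, as for *MX1*, but treated signal was above background on only 2 of 4 arrays, so the size of this ratio rests in part on dim spots. After normexp correction its mean was −1.44 with loess and −1.46 with median centring. *IFIT5*, an RNA-binding relative named through its description, had a mean of −0.76 ± 0.33 (SD, n = 4), between −1.04 and −0.35, and was past the threshold. *IFIT1*, which binds viral RNA that lacks the cap methylation of the host, was set aside, since control signal was above background on 3 arrays and treated signal on 0.

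The next group makes and removes ISG15 conjugates. ISG15 is itself the tag, a ubiquitin-like protein that is joined to newly made proteins and is also secreted. Its probe lies at chrUn:254070794-254070853 of the build in the file header, EquCab1, on the minus strand, and is printed, 5′ to 3′, since the other members of the group act on its product.
ISG15: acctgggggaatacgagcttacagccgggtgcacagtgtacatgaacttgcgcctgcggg
Control signal at this probe was 42999, 14299, 84059 and 12660 on arrays 1 to 4, and treated signal was 12098, 4650, 12571 and 4409. Arrays 1 and 3 were high and arrays 2 and 4 low in both channels, with a wider spread in the control channel. The log2 ratios were −1.83, −1.62, −2.74 and −1.52, a mean of −1.93 ± 0.56 (SD, n = 4), or 3.81-fold lower.

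USP18 takes ISG15 off proteins and also binds the interferon receptor, where it holds signalling down. The second of its probes is shown because it crosses an intron, its 60 bases being spread over 576 bases of the genome at chr6:27336266-27336841 on the minus strand.
USP18: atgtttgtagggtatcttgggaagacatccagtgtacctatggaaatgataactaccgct
With this probe the control signal was 680, 229, 1481 and 159 on arrays 1 to 4, and the treated signal was 143, 51, 88 and 44. Array 3 was highest in control cells and array 1 in treated cells. The ratios were −2.25, −2.17, −4.07 and −1.87, a mean of −2.59 ± 1.0 (SD, n = 4), or 6.03-fold lower. Its other probe, with 16 bases in common, had a mean of −2.77.

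*HERC5* and *HERC6* code for ligases of the same family, of which HERC5 joins ISG15 to proteins in human cells and HERC6 in mouse cells. For *HERC6* the ratios were −1.95, −1.31, −3.91 and −0.58, a mean of −1.94 ± 1.43 (SD, n = 4), or 3.83-fold lower. Its control signal was 1607, 474, 4737 and 455, and its treated signal 417, 191, 315 and 305. Control signal on array 3 stood far above the other arrays, and treated signal there did not, and without replicate 3 the mean was −1.28. The call was lost without replicate 1 and without replicate 2, as was that of *HERC5*. For *HERC5* the ratios were −1.31, −0.79, −2.44 and −0.44, a mean of −1.25 ± 0.88 (SD, n = 4), or 2.37-fold lower. The other *HERC5* probes, which overlap by 30 bases, were above background on 2 control arrays each, short of the filter, and had means of −1.19 and −1.29, although 1 of them was above 0 on array 2, at 0.21. *UBA7*, the enzyme that activates ISG15, and *TRIM25*, a ligase of the RIG-I pathway, were set aside as too dim.

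Enzymes that act on nucleotides and RNA were thinly measured. *RSAD2*, or viperin, makes a chain-terminating nucleotide, and its probe was above background on 1 array in control cells and on 0 in treated cells. *CMPK2*, a mitochondrial nucleotide kinase that lies next to *RSAD2* in the genome, was named through its description. Its ratios were −1.14, −0.58, −2.03 and −0.39, a mean of −1.04 ± 0.73 (SD, n = 4), or 2.05-fold lower, and array 3 was again lowest. Its 3 probes share at least 58 of 60 bases and count as 1 measurement. *ISG20*, an exonuclease that degrades single-stranded RNA, had ratios of −0.61, −0.17, −1.09 and 0.10, a mean of −0.44 ± 0.52 (SD, n = 4), with arrays on both sides of 0 and no call. Its mean was −0.23 without replicate 3 and −0.29 under normexp with median centring.

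Among the effectors at membranes, IFI6 sits in the endoplasmic reticulum and hinders the membrane changes that flaviviruses need. *IFI6* had control signals of 13756, 8597, 32885 and 9535 on arrays 1 to 4, and treated signals of 5887, 5302, 5848 and 4761. The treated values lay close together while the control value of array 3 stood well above the others. The ratios were −1.22, −0.70, −2.49 and −1.0, a mean of −1.35 ± 0.79 (SD, n = 4), or 2.56-fold lower. *IFI27*, a small hydrophobic relative of *IFI6* that the array calls by an older name, had ratios of −1.36, −0.63, −2.77 and −1.14, a mean of −1.48 ± 0.91 (SD, n = 4), or 2.78-fold lower.

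LGALS3BP, grouped with them, is a secreted glycoprotein that binds galectins at the cell surface. Its probe at chr11:2562041-2562100, on the plus strand, is printed because its ratios had an SD of 0.35, the smallest among the 24 genes for any with a mean below −1.
LGALS3BP: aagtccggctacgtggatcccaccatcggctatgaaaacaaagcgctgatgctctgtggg
The control signal was 644, 469, 1084 and 508 on arrays 1 to 4, and the treated signal 268, 156, 253 and 179. No treated value reached the lowest control value, so the groups did not overlap. Ratios were −1.26, −1.58, −2.10 and −1.50, a mean of −1.61 ± 0.35 (SD, n = 4), or 3.06-fold lower.

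PLSCR1, a phospholipid scramblase that also hinders the entry of viruses, was the 1 kept gene with a mean above 0. Its probe at chr16:80707575-80707634, on the plus strand, is shown for that reason.
PLSCR1: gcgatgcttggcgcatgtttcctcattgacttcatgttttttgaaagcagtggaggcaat
Ratios were 0.65, 0.37, −0.01 and −0.59 on arrays 1 to 4, a mean of 0.11 ± 0.54 (SD, n = 4), with arrays 1 and 2 above 0 and array 4 below. Signals were dim in both channels, at 21, 19, 27 and 28 in control and 33, 24, 27 and 19 in treated cells. The mean was −0.08 without replicate 1, 0.02 without replicate 2 and 0.34 without replicate 4. A second *PLSCR1* probe, short of the filter with 1 control and 2 treated arrays above background, had a mean of 0.07. *BST2*, or tetherin, which holds budding particles on the cell, and *RTP4*, a chaperone of membrane receptors, were set aside as too dim.

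The largest group holds cytoplasmic proteins, and its largest difference by the gene name column was that of *IFI44*. IFI44 is a cytoplasmic protein with a GTP-binding motif that slows cell growth and virus replication. Its probe at chr5:57398964-57399023, on the minus strand, is printed as that of the lowest mean among the 24 genes.
IFI44: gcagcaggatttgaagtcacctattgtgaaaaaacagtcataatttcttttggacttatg
Control signal was 5994, 2392, 9766 and 2010 on arrays 1 to 4, and treated signal was 1005, 610, 413 and 503. Array 3 was the highest in control cells and the lowest in treated cells. The ratios were −2.58, −1.97, −4.56 and −2.0, a mean of −2.78 ± 1.22 (SD, n = 4), or 6.86-fold lower. Without replicate 3 the mean of *IFI44* was −2.18. Its neighbour and relative *IFI44L* had ratios of −2.30, −1.89, −3.99 and −1.68, a mean of −2.47 ± 1.05 (SD, n = 4), or 5.52-fold lower, with the arrays in nearly the same order.

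*PLAC8B*, named through its accession, is a relative of the small cysteine-rich protein PLAC8. Its ratios were −2.74, −2.32, −5.73 and −1.39, a mean of −3.04 ± 1.88 (SD, n = 4), or 8.25-fold lower. Its control signal was 1381, 313, 4246 and 241 on arrays 1 to 4, and its treated signal 206, 63, 80 and 92. The ratio of array 3 was the lowest of any member with a tested probe, and it came from a control signal far above those of arrays 2 and 4. The size of the mean and of its fold thus rests in part on array 3. The second probe, which shares 30 bases, had a mean of −2.82.

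IFI35 and NMI bind each other and act in signalling by cytokines. *IFI35* had ratios of −1.79, −1.12, −3.27 and −1.38, a mean of −1.89 ± 0.96 (SD, n = 4), or 3.71-fold lower. For its partner *NMI* they were −0.21, 0.08, −0.50 and −0.54, a mean of −0.29 ± 0.29 (SD, n = 4), and a second probe gave −0.24, while the mean was −0.13 under normexp with median centring. *NMI* was not past the threshold, and its control and treated signals overlapped, from 438 to 659 and from 318 to 467. The difference between the partners was not tested.

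XAF1 binds an inhibitor of apoptosis and EPSTI1 acts in macrophages and epithelial cells. *XAF1* had ratios of −1.98, −1.72, −2.50 and −1.64, a mean of −1.96 ± 0.39 (SD, n = 4), or 3.89-fold lower, and its mean was −1.25 after normexp correction with loess and −1.22 with median centring. Its arrays lay close together, although treated signal was above background on 3 of 4. *EPSTI1* had ratios of −1.41, −0.38, −2.23 and −1.02, a mean of −1.26 ± 0.77 (SD, n = 4). Its second probe, at −0.90, was not past the threshold, nor was the first without replicate 4. *TRIM21*, a ligase that binds antibody on virus particles in the cytosol, had a mean of −0.75 ± 0.39 (SD, n = 4), between −1.32 and −0.45. *TDRD7*, named through its description and known to hold back autophagy that viruses use, had a mean of −0.71 ± 0.32 (SD, n = 4), between −1.13 and −0.35. *TRIM21* and *TDRD7* were past the threshold.

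*SAMD9* and *SAMD9L* are neighbouring genes whose products stop translation in cells infected with poxviruses. Their probes were compared because similar sequences could read each other's RNA. Both pairs lie at matching places of chr4, the first at chr4:36279859-36279918 and chr4:36318708-36318767 and the second at chr4:36279919-36279978 and chr4:36318768-36318827, on the minus strand. Capitals mark the bases that differ within a pair.
SAMD9: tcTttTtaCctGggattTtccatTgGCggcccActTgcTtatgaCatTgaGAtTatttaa
SAMD9L: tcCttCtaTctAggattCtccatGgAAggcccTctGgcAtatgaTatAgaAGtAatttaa
SAMD9: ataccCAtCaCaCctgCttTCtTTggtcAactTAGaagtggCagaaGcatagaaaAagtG
SAMD9L: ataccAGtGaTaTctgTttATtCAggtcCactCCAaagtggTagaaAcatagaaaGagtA
In the first pair 44 of 60 bases were the same and the longest run without a difference was 6 bases. In the second pair these were 42 of 60 bases and 8 bases. Whether the RNA of one gene reached the probe of the other was not tested.

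*SAMD9L* had ratios of −1.97, −0.99, −3.80 and −0.19 with its first probe, a mean of −1.74 ± 1.56 (SD, n = 4), and a mean of −1.61 with its second. Array 4 was near 0 and array 3 far below it, and neither probe was past the threshold, although the first was without replicate 4. Without replicate 3 the mean of *SAMD9L* was −1.05 and that of *SAMD9* −0.30. *SAMD9* had ratios of −0.73, 0.22, −1.64 and −0.37 with its first probe, a mean of −0.63 ± 0.78 (SD, n = 4), with array 2 above 0 and no call, and a mean of −0.41 under normexp with median centring. Its second probe was lower on all 4 arrays, at −1.02, −0.27, −1.79 and −0.67, and was past the threshold with a mean of −0.94 ± 0.65 (SD, n = 4). The call for *SAMD9* thus differed between its probes. *ZBP1*, a sensor of Z-form nucleic acid that starts necroptosis, was below background on all 4 arrays in both channels.

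PARP proteins add ADP-ribose to other proteins, and DTX3L is the ubiquitin ligase that works as a pair with PARP9. *PARP9* had ratios of −1.36, −0.65, −2.32 and −1.34, a mean of −1.42 ± 0.69 (SD, n = 4), or 2.67-fold lower, and a second probe gave −1.16. *DTX3L*, its neighbour in the genome, had ratios of −1.72, −0.58, −2.41 and −0.79, a mean of −1.37 ± 0.85 (SD, n = 4), or 2.59-fold lower. On array 3 both were lowest and on array 2 both were nearest to 0. Treated signal of *DTX3L* was above background on 1 of 4 arrays, so its fold rests on dim spots, and its mean was −0.54 after normexp with loess, where the call was lost, and −0.64 under normexp with median centring.

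*PARP14*, which acts in signalling by STAT proteins, had a mean of −0.95 ± 0.44 (SD, n = 4), between −1.59 and −0.65, and a second probe gave −0.88. *PARP12*, which can stop translation, had a mean of −0.90 ± 0.38 (SD, n = 4), between −1.42 and −0.55. All 4 kept genes of the group were past the threshold and lower on all 4 arrays. Among all tested genes, the share past the threshold and lower was 11.6%, and the share lower on all 4 arrays was 21.4%. *PARP10*, named through its description, was set aside, with control signal above background on 3 arrays and treated signal on 1. Of the nuclear body proteins, *PML*, which builds those bodies, was below background on all 4 arrays in both channels.

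All 5 members named by accession or description and kept were past the threshold and lower on all 4 arrays. Of all tested genes, 11.6% were past the threshold and lower, and 21.4% were lower on all 4 arrays. With these 5 members the count was 24 of 29 and the median of the means −1.37. Among members found by gene name, those nearest to the background limit on its inner side were *PLSCR1*, with mean signals of 24 in control and 26 in treated cells, and *DTX3L*, with 55 and 19. On the outer side were *UBA7*, above background on 3 arrays in each channel with mean signals of 36 and 17, and *BST2*, above it on 2 arrays in control and 0 in treated cells with 29 and 8. Of those named otherwise, *PARP10* and *IFIT1* were also nearer to it than *BST2*, each above background on 3 control arrays. A gene bright in 1 channel alone passes this filter and a gene dim in both does not, so the kept genes are not the whole set.

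**Figure D2:**
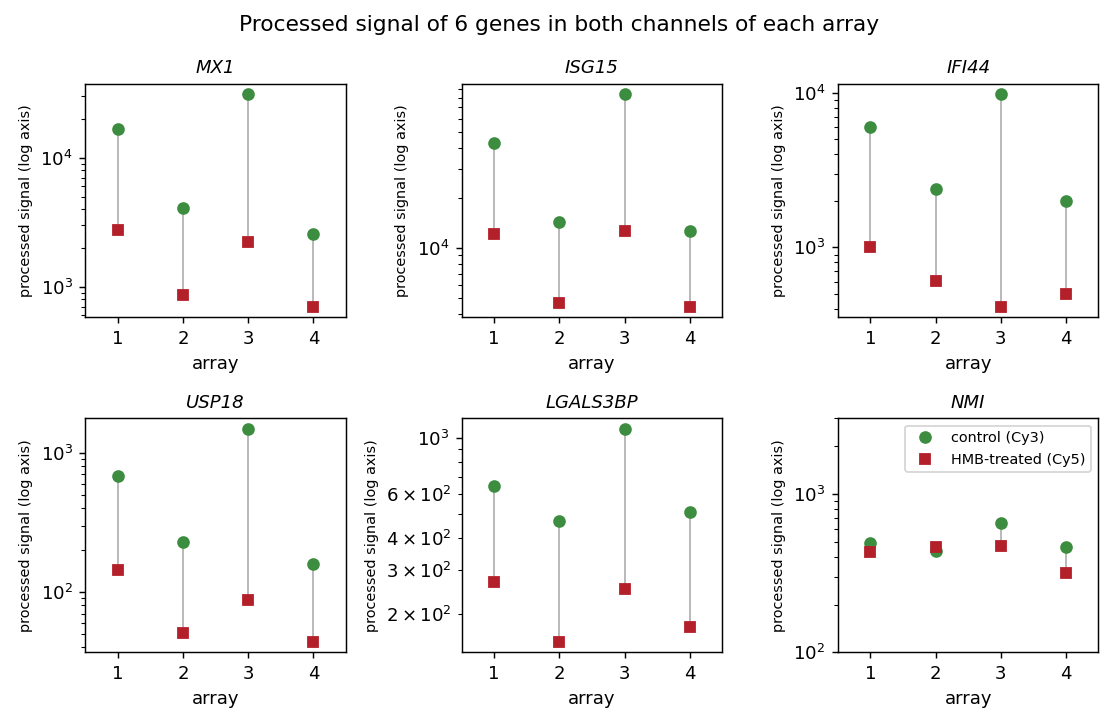
Processed signal on a log axis of 6 genes in control cells (Cy3, green circles) and HMB-treated cells (Cy5, red squares) on arrays 1 to 4, with a grey line joining the channels of an array. Control signal of *MX1* ran from 2554 to 31066 and treated signal from 697 to 2736, while the channels of *NMI* lay close together.

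The channels differed in how much the members varied between arrays, as the plots of signals show. For each gene the highest signal over the 4 arrays was divided by the lowest, apart for each channel. The median of this ratio over the 24 genes was 3.96 in control cells and 1.74 in treated cells, and over all tested probes it was 1.25 and 1.31. It was larger in control cells for 22 of the 24, all but *MX2* and *PLSCR1*, and for 39.9% of all tested genes. *MX1* had 12.2 in control and 3.92 in treated cells, *IFI6* had 3.83 and 1.24, and *PLAC8B* had 17.6 and 3.29. For *MX2*, *IFIT3*, *XAF1* and *DTX3L*, treated signal was not above background on every array. Their ratios in treated cells rest in part on dim spots, and a count without them is not given.

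Control signal was highest on array 3 for 22 of the 24 genes, and for 14.3% of all tested probes. It was lowest on array 2 for 12 genes and on array 4 for the other 12. Treated signal was highest on array 1 for 19 genes, on array 3 for 3 and on arrays 2 and 4 for 1 each, and array 1 was highest for 37.7% of all tested probes. It was lowest on array 4 for 13 genes, on array 2 for 9 and on array 3 for 2.

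**Figure D3:**
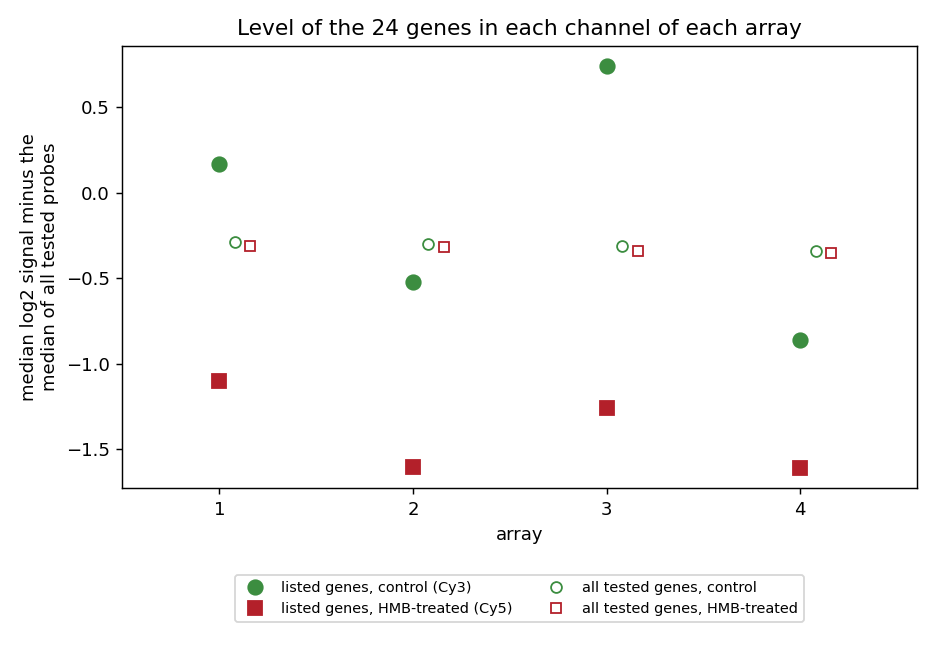
Median log2 signal of the 24 genes less the median of all tested probes of the same channel and array (filled symbols), with the same for all tested genes (open symbols), on arrays 1 to 4. Control levels of the 24 genes spread over 1.60 log2 units and treated levels over 0.51.

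On the log2 scale, the median level of the 24 genes relative to all tested probes of the same channel was 0.17, −0.52, 0.74 and −0.86 in control cells on arrays 1 to 4. In treated cells it was −1.10, −1.60, −1.26 and −1.61. The range was 1.60 in control cells, a 3.02-fold difference, and 0.51 in treated cells, 1.43-fold, while all tested genes had ranges of 0.05 and 0.03. The highest treated level lay below the lowest control level, so the channels did not overlap in this summary. Both channels had high levels on arrays 1 and 3 and low levels on arrays 2 and 4. Whether the arrays differ by animal, culture or labelling is not stated, and the part of any of these was not tested.

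In RefSeq gene order, 12 of the members form 6 pairs of adjacent coding genes. They are *RSAD2* and *CMPK2*, *DTX3L* and *PARP9*, *MX2* and *MX1*, *HERC5* and *HERC6*, *SAMD9* and *SAMD9L*, and *IFI44* and *IFI44L*. Both genes of a pair were kept by the gene name column in 5 of the 6. Probes of different members shared at most 12 bases in a row, between *RTP4* and *ZBP1*, both short of the background filter.

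Outside the set, 7 lists of the interferon pathway held 110 genes, of which 94 were on the array and 76 were tested. Of these 76, 29 were lower and 1 was higher with HMB past the threshold, beside 11.6% and 10.9% of all tested genes. The lists were put together with earlier results of these data known in part, so nothing is read from that difference. With both channels required above background, 28 of 74 were past the threshold. Without replicate 1 the count of 30 became 18. It was 10 of 94 without the background filter, 12 with unpaired channels and 1 with the workbook's test. Under normexp with median centring, which changes the background correction and leaves out lowess at once, the median of all tested probes moved from 0.02 to 0.15.

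Of 8 interferon ligands, 5 were on the array and none passed the background filter. Of these, *IFNA1*, *IFNE* and *IFNK* were above background on 0 arrays in either channel, *IFNB1* on 1 array in treated cells, and *IFNG* on 1 in each channel. The 11 tested receptors, JAK kinases and STAT proteins had a median of −0.05, and of 0.07 under normexp with median centring and −0.11 without replicate 1.

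Of 5 tested interferon regulatory factors, 2 were lower past the threshold. *IRF7*, which raises interferon transcription, had ratios of −1.82, −1.77, −3.09 and −1.57, a mean of −2.06 ± 0.69 (SD, n = 4), and *IRF9*, which binds DNA together with STAT proteins, had a mean of −1.19 ± 0.52 (SD, n = 4). The other means were −0.09 for *IRF1*, −0.10 for *IRF2* and −0.04 for *IRF3*, the last at 0.17 under normexp with median centring. As in the set, *IRF7* was lowest on array 3. Among 4 tested feedback inhibitors, the phosphatase *PTPN11* rose by 0.25 ± 0.08 (SD, n = 4), a call lost after normexp with loess and without any 1 of the replicates, while *PIAS1* had 0.03 and *CISH* −0.01. For *PTPN2* the mean was 0.21, not past the threshold, but it was past it at 0.20 after normexp with loess, at 0.44 under normexp with median centring, and with an intensity trend and a robust prior.

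Counts in each list are of genes past the threshold. Sensors of nucleic acid and OAS enzymes had 10 of 15 genes lower, 0 higher and a median of −1.01, which was −0.66 under normexp with median centring. With both channels required above background it was 9 of 14 lower, since treated signal of *TLR3* was above it on 3 of 4 arrays. The count lower was 4 without replicate 1, 3 with unpaired channels and 1 without the background filter. The helicase *DDX60* fell the most, at −2.52, −2.19, −4.17 and −3.27, a mean of −3.04 ± 0.88 (SD, n = 4). In MHC class I peptide loading 7 of 12 were lower and 0 higher, with a median of −0.41, against 4 lower and a median of −0.14 under normexp with median centring. There were 3 lower without replicate 3 or without the background filter and 4 with unpaired channels. The light chain *B2M* fell by 1.54 ± 0.35 (SD, n = 4), or by 0.88 under normexp with median centring. Of 29 other interferon-induced genes 9 were lower and 0 higher, with a median of −0.08, between −0.15 without replicate 1 and −0.04 without replicate 3. Under normexp with median centring 6 were lower and 2 higher, with a median of 0.02, and without replicate 1 there were 5 lower and 1 higher. Without the background filter 3 of 35 were lower and 1 higher, and with unpaired channels 3 were lower. The chemokine *CXCL9* had the largest fall there, by 1.54 ± 0.44 (SD, n = 4), with treated signal above background on 3 of 4 arrays, and fell by 0.69 after normexp with loess and by 0.73 under normexp with median centring. Relatives of the members that are not known as interferon-induced had 4 of 30 higher (7 under normexp with median centring, 1 without replicate 3, and 0 in limma with unpaired channels, with 2 at an unadjusted P of 0.05) and 0 lower, with a median of 0.07 (0.03 after normexp with loess, 0.15 under normexp with median centring, −0.0 without replicate 1), led by the galectin *LGALS3*, which rose by 0.46 ± 0.22 (SD, n = 4) but was not past the threshold without replicate 2 or without replicate 3. Without replicate 1 or without replicate 2, 2 of these relatives were higher. With the workbook's test no list gene named by its ratio was past the threshold, and the calls of *IRF9*, *PTPN11*, *LGALS3* and *PTPRC*, a leukocyte marker, were also lost with unpaired channels and, with that of the muscle gene *MYH3*, without the background filter.

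**Figure D4:**
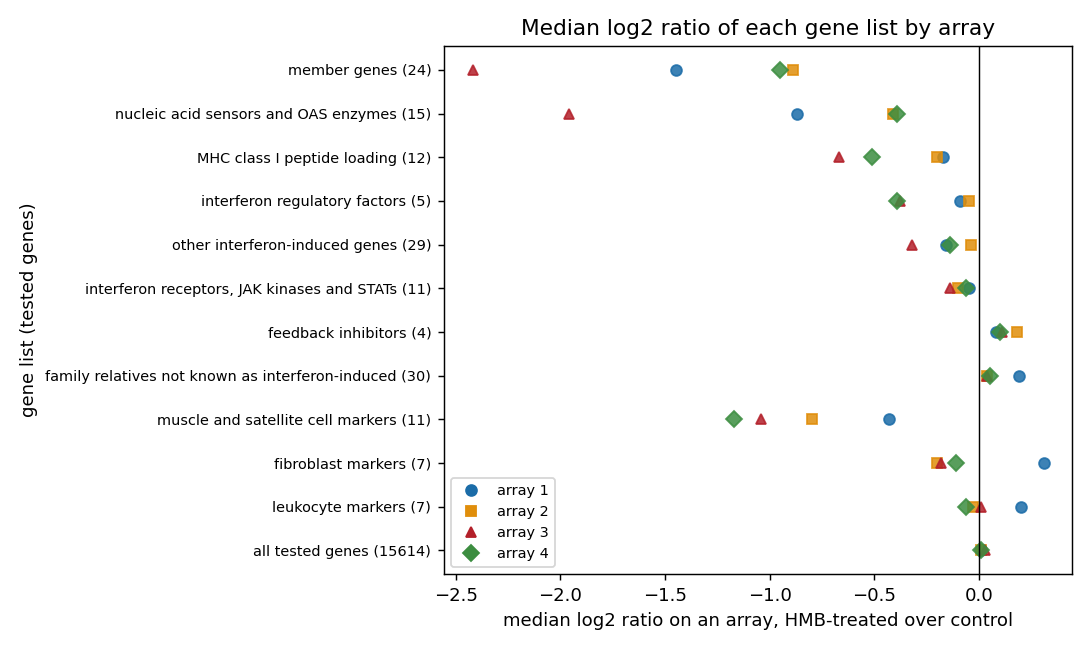
Median log2 ratio of HMB-treated over control cells on each array for the 24 member genes, the lists of other interferon genes, the marker lists and all tested genes, with the number of tested genes in brackets. Members and sensors had their lowest median on array 3, and muscle markers on array 4.

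Marker lists give the cell types whose RNA was in the samples. Of 12 muscle and satellite cell markers 11 were tested and all 11 were lower past the threshold, with a median of −0.86, beside 11.6% of all tested genes. Under normexp with median centring 7 were lower past it, with a median of −0.46, and without replicate 2 or without replicate 3 also 7. Without the background filter 2 were past it, and with the workbook's test 0, with 10 at an unadjusted P of 0.05. In these last 2 settings the median was −0.83 and −0.86, so it was the calls that changed. Array medians of the muscle markers were −0.43, −0.80, −1.04 and −1.17 on arrays 1 to 4, so array 1 was nearest to 0 and array 4 lowest, another order than that of the members. Their summed signal was 187582, 187688, 201197 and 208049 in control cells and 136787, 94042, 86933 and 78615 in treated cells. The brightest was the embryonic myosin *MYH3*, which also fell the most, at −1.11 ± 0.47 (SD, n = 4), and which was at −0.21 and not past the threshold under normexp with median centring. The satellite cell factor *PAX7* was above background on 0 arrays in either channel. The part of the muscle markers in the members' result was not tested.

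Of 15 leukocyte markers 7 were tested, and 1 was higher and 0 lower past the threshold, beside 10.9% and 11.6% of all tested genes. Their median of 0.02 was −0.03 after normexp with loess, 0.06 under normexp with median centring and −0.04 without replicate 1. The number higher past the threshold was 2 after normexp with loess and 3 under normexp with median centring. The brightest, *PTPRC*, rose by 0.28 ± 0.13 (SD, n = 4), and by 0.66 under normexp with median centring, a call lost without any 1 of the replicates. Their summed signal was 18614, 16530, 18817 and 17231 in control cells and 23889, 18378, 21125 and 18365 in treated cells. The median control level of the 7 leukocyte markers, relative to all tested probes, was −0.84, −1.24, −0.31 and −1.5 on arrays 1 to 4. Array 3 was highest and array 4 lowest, the same order of arrays as for control levels of the members. In treated cells it was −0.94, −1.27, −0.42 and −1.56, and the range was 1.19 in control and 1.14 in treated cells. *ITGAM*, *TYROBP*, *LAPTM5* and *CD3E* were above background on 0 arrays in either channel, and *CD163*, *CSF1R*, *AIF1* and *LYZ* on at most 1 array in a channel. Of 5 endothelial markers, *PECAM1*, *VWF*, *KDR* and *TEK* were above background on 0 arrays and *CDH5* on 1 in control cells.

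Of 7 fibroblast markers, all tested, 1 was higher and 0 lower past the threshold, beside 10.9% and 11.6% of all tested genes. Their median of −0.10 became 0.10 after normexp with loess and 0.91 under normexp with median centring, where 5 were higher past the threshold. Without replicate 1 the median was −0.19 and a marker was also lower past the threshold, and without replicate 3 or without replicate 4 the median was −0.04. The growth factor receptor *PDGFRA* rose by 1.53 ± 0.47 (SD, n = 4), by 0.89 after normexp with loess and by 0.93 under normexp with median centring. The collagen gene *COL1A2* was the brightest. Their summed signal was 373823, 352548, 382055 and 492776 in control cells and 449926, 311251, 332499 and 330961 in treated cells. Control signal of these markers was highest on array 4, and that of the members on array 3. The part of leukocyte and fibroblast markers in the members' result was not tested.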

How the data were processed

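Messenger RNA of HMB-treated (Cy5) and control (Cy3) equine satellite cells was measured on 4 two-colour arrays. The authors made the deposited spot intensity values, raw and processed, with Feature Extraction, version 10.10.1.1 by the file headers, where processing means subtraction of background, detrending and dye normalisation. The deposited ratios are log10 values of Cy5 over Cy3 after linear and lowess normalisation by the authors, and their summary table holds the same log10 values. Per the file headers, a further deposited unit is the mark of 0 or 1 that a spot carries when it is saturated, non-uniform, outlying or above background. The description field of the labels names another treatment, so the titles and source names were used.

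The ratios were multiplied by 3.32 to give log2 values. Control spots, 1417 an array, and the 11, 17, 32 and 15 marked spots of arrays 1 to 4 were left out, and replicate spots were averaged by probe. Testing needed values on 3 or more arrays (2 when an array was left out) and 1 channel, the same throughout, well above background on each of the 4, which kept 27384 of 43603 probes. Between 63.5% and 66.9% of probe spots were above background in a channel, none was saturated, and the number of arrays limits precision. limma 3.58.1 in R 4.3.3 fitted an intercept with empirical Bayes variance, two-sided, with Benjamini and Hochberg adjustment. The tested probe with the highest mean intensity stands for its gene. Python 3.11.15 with numpy 2.4.6, pandas 2.3.3 and matplotlib 3.10.9 and the R package data.table, version 1.17.8, handled tables and figures. Simulated data were used to check the procedure.

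Members and lists were chosen with earlier results of these data known. Ratios by array are printed for the member with the largest mean in size of each role, every member with a mean over 1 in size and those whose probes or arrays differ in sign. Of each list, the called genes with the largest rise and fall are named, and all genes where 5 or fewer were tested. *IFNA1*, *IFNB1*, *IFNG*, *IFNE* and *IFNK* and the markers short of the background filter are named beside these. Genes of the lists that the gene name column lacks were named by accession or description. Alternatives were normexp correction (offset 50) with loess or median centring, the summary table, marked spots kept, no background filter, both channels above background, an intensity trend with a robust prior, the test of each probe on its own variance that the supplementary workbook names, 8 channels unpaired or in array blocks, the mean of a gene's probes and each array left out. Motifs in promoters were not analysed here. Results for 1 listed gene are not reported here.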

Additional observations from a re-analysis of the deposited data

Results flagged for a closer look

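The array medians of the 30 tested relatives not known as interferon-induced were 0.19, 0.04, 0.04 and 0.05 on arrays 1 to 4. Array 1 lay apart from the others, by a gap that was 0.933 of the whole range, above the 95% critical value of Dixon for 4 arrays. Of 46 results examined in this way it was the single one, and chance gives about 1 in 20.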

How the results depend on the processing

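Without the background filter, 3690 probes, 5 of 30 members and 10 interferon genes outside the set were past the threshold, against 6257, 19 of 24 and 30. With the workbook's test of each probe on its own variance these were 768, 0 and 1. With 8 unpaired channels they were 2226, 8 and 12. The cause was not tested. At an unadjusted P of 0.05, 16 members passed the workbook's test, against 21 in limma, and the share of all tested probes at that P is not given. With an array left out, the probes ranged from 2564 (without replicate 2) to 4981, with 2729 without replicate 3, the members from 12 (without replicate 1) to 19, the outside genes from 18 (without replicate 1) to 26, and the median of the members from −1.63 to −1.04.

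Under all other alternatives, those counts stayed within 1.5 times, and the median of the members lay between −1.45 and −1.01. Among called probes, the share lower with HMB was 50.9%, 56.0% after normexp with loess and 21.7% after normexp with median centring. Of 356 member means under 15 alternatives, 352 moved by less than 1 SD and 4, of *IFIT3* and *XAF1*, by more. Many of the 352 show no stability, since a change of filter, prior, test or channel pairing left each mean as it was. Within 1 SD, *MX2* still went from −1.33 to −0.64 and *DTX3L* from −1.37 to −0.54 after normexp with loess. No called member turned, and 3 means changed sign, all of *PLSCR1*. Chosen after seeing the data were the members named by accession or description, with 24 of 29 past the threshold, and the lists by gene name alone, with 25 of 59. The search for motifs was not run, since no promoter sequences were at hand. Dim spots limit *MX2*, *IFIT3*, *XAF1* and *DTX3L*, whose treated signal was not above background on every array.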
